A study of Mus musculus with 1 sample.

Results

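TRBV14, TRBV15, TRBV16, TRBV17, TRBV19, TRBV20, TRBV24, TRBV26, TRBV29 and TRBV31 are the 10 listed variable (V) segments that lie towards the 3′ side of the V array of the mouse T cell receptor beta locus. Their usage was read in blood T cells of 1 vehicle-treated mouse with small cell lung cancer (SCLC). Members were taken from the table of assembled receptor contigs as beta (TRB) chains that were in a cell, productive and of high confidence and whose V gene was among the 10. This gave 355 cells with 362 chains out of 945 TRB cells with 981 chains, a share of 37.6% (34.5% to 40.7%). In 7 cells both beta chains used a member segment. The mouse belonged to a conditional Rb1 and Trp53 deletion model on a C57BL/6 background, in which Cre is delivered to the airway by adenovirus, and it received phosphate-buffered saline every 3 days; its age and sex are not in the labels. From 150 µl of its blood, T lymphocytes were enriched by negative selection, and receptor and gene expression libraries were read from the same droplet barcodes. With 1 library of 1 mouse there are no replicates and no test was run. Intervals in parentheses are exact 95% binomial (Clopper-Pearson) intervals for shares, exact conditional intervals for ratios and exact Poisson intervals for rates of unique molecular identifiers (UMIs, tags that mark captured RNA molecules), and all of them cover counting error only.

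A beta chain is made in the thymus by joining a V, a diversity (D) and a joining (J) segment, with bases trimmed from the ends and new bases added between them. The junction encodes the third complementarity-determining region (CDR3), which lies over the peptide held by an MHC molecule, while the V segment alone encodes the other loops that contact the MHC molecule and the sides of the receptor that superantigens bind. Thymocytes that survive selection on MHC class II keep CD4 and those selected on MHC class I keep CD8. Most V segments lie upstream of the D, J and constant genes, but Trbv31 lies downstream of them on the opposite strand and is joined by inversion.

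Cells were sorted into classes by their UMIs of the coreceptor genes. Cd4-only cells, with at least 1 UMI of Cd4 and none of Cd8a or Cd8b1, numbered 256 (27.1% of the TRB cells). Cd8-only cells, with UMIs of Cd8a or Cd8b1 and none of Cd4, numbered 513 (54.3%). UMIs of both were found in 35 cells and of neither in 141. Doublets were not called or removed, so cells with both coreceptor genes or with 2 beta chains may include them. The classes were not equally deep: Cd4-only cells had a median of 3843.5 UMIs and Cd8-only cells of 7290. The Cd4 call rested on 1 UMI in 109 of 256 cells, against 12 of 513 for the Cd8 call. Among 77 B cells, which should lack these genes, 2 held a Cd4 UMI (2.60%) and 3 a UMI of Cd8a or Cd8b1 (3.90%), at a median of 3842 UMIs. Barcodes with under 10% ribosomal protein UMIs made up 49 of the Cd4-only and 53 of the Cd8-only cells. The part of depth and RNA quality in the differences between the classes was not tested beyond the values given beside them. Member cells held Cd3e, part of the CD3 complex of T cells, in 102 of 109 Cd4-only and 174 of 180 Cd8-only cells, and the B cell gene Cd79a in 1 and 2 of them.

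The germline end of each segment carried into the CDR3 is shown because it sets where trimming and addition begin. Each line runs from the codon of the conserved cysteine to the last coding base, as in the GENCODE M39 transcripts, and capitals mark the bases that at least 50% of the segment's chains kept.
TRBV14: TGTGCCAGCAGTttct
TRBV15: TGTGCCAGCAGTTTagc
TRBV16: TGTGCAAGCAGCTTaga
TRBV17: TGTGCTAGCAGTAGaga
TRBV19: TGTGCCAGCAGTatag
TRBV20: TGTGGTGCTAGgga
TRBV26: TGTGCCAGCAGTCTgtc
TRBV29: TGTGCTAGCAGTTtatc
TRBV31: TGTGCCTGGAGTCt
TRBV20 and TRBV31 enter the CDR3 with 14 bases and the other found members with 16 or 17. All 362 member chains were identical to the germline sequence over the framework and first and second loops, so that each of the 9 found segments was represented by 1 sequence. TRBV31 kept its germline end most often, whole in 20 of 50 chains (40.0%), followed by TRBV20 in 10 of 32 (31.3%) and TRBV16 in 15 of 75 (20%). TRBV14 kept it whole in 1 of 36 chains (2.78%) and TRBV15 in 1 of 32 (3.13%). On average TRBV31 lost 1.78 ± 1.99 bases (SD over 50 chains) and TRBV29 lost 4.33 ± 2.25 (27 chains).

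TRBV16 was the most used member, with 75 cells (7.94%, 6.29% to 9.85%), then TRBV19 with 64 (6.77%) and TRBV31 with 50 (5.29%). TRBV14 followed with 36 cells, TRBV15 and TRBV20 with 32 each, TRBV29 with 27, TRBV26 with 24 and TRBV17 with 22 (2.33%, 1.46% to 3.50%). The intervals of TRBV16, TRBV19 and TRBV31 overlapped, as did those of the 6 segments below them. TRBV24, which GENCODE M39 lists as a pseudogene, was found in no cell, with an exact upper bound of 0.390%.

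Taken as a group, the member segments were in 109 of 256 Cd4-only cells (42.6%, 36.4% to 48.9%) and in 180 of 513 Cd8-only cells (35.1%, 31.0% to 39.4%). The ratio of the shares was 1.21 (0.948 to 1.55), an interval that included 1. Among cells with 1 beta chain it was 1.29, with an interval that began just above 1 and ended at 1.66, and over the 7 other ways of calling or choosing cells the intervals included 1. The share was 34.3% of the 35 cells with both genes and 38.3% of the 141 cells with neither. Within this near balance single segments leaned in opposite directions. A segment was counted as leaning when the ratio of its Cd4-only to its Cd8-only share was at least 1.5 either way, over TRBV segments with at least 10 cells in both classes together. By that rule 13 of 20 segments leaned (65%), among them 7 of the 9 found members and 6 of the 11 others. In the Cd4-only direction the share over all segments was 35%, with 4 members, and in the Cd8-only direction 30%, with 3 members. A stricter description, chosen after the data were seen, asks that the intervals of both shares do not overlap: 4 of 20 segments met it (20%), namely the members TRBV29 and TRBV31 and, outside them, TRBV12-1 and TRBV12-2.

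**Figure D1:**
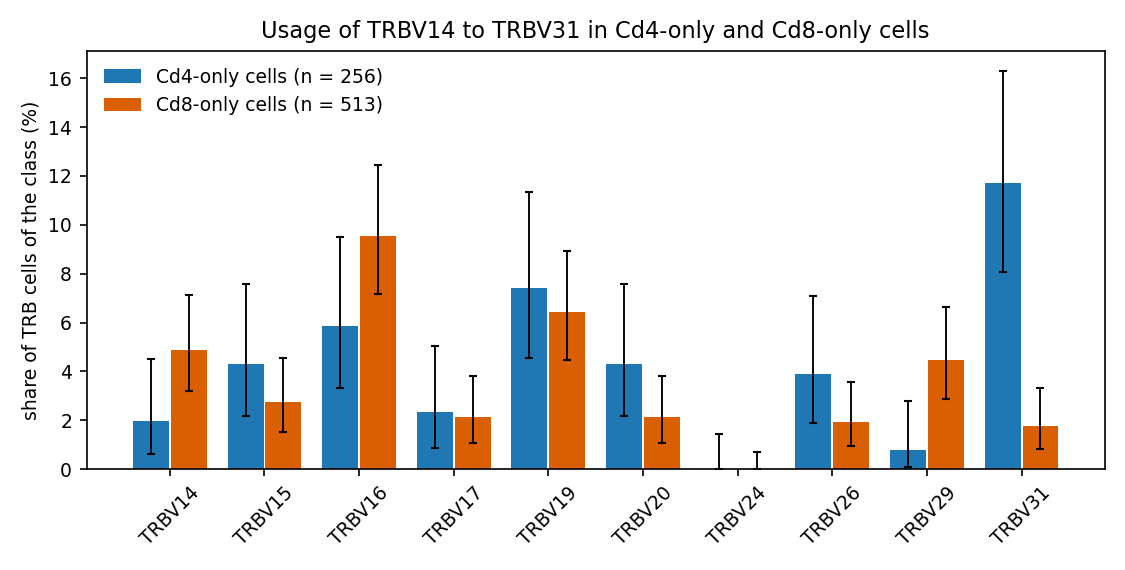
Share of the TRB cells of each class that used each member segment (y axis, %), for 256 Cd4-only and 513 Cd8-only cells; bars start at 0 and error bars are exact 95% binomial intervals. TRBV31 stands at 11.7% against 1.75%, TRBV29 at 0.781% against 4.48%, and the intervals of the other found segments overlap between the classes.

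TRBV31 was the member most unequal between the classes. It was found in 30 of 256 Cd4-only cells (11.7%, 8.05% to 16.3%) and in 9 of 513 Cd8-only cells (1.75%, 0.805% to 3.30%), a ratio of 6.68 (3.09 to 16), and also in 10 cells with neither gene and 1 with both. Its 50 cells belonged to 49 clonotypes. The ratio stayed between 5.87 and 8.45 over 8 other ways of calling or choosing cells, and was 6.06 when at least 2 UMIs were asked for. TRBV31 was the most used member among Cd4-only cells and the least used found member among Cd8-only cells, where TRBV26 (1.95%) was the next. Of the 11 V calls outside the members with enough cells for the comparison (10 segments and 1 joint call), the nearest in ratio was TRBV2, with 19 Cd4-only and 17 Cd8-only cells and a ratio of 2.24 (1.10 to 4.59).

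TRBV29 leaned the other way. It was found in 2 Cd4-only cells (0.781%, 0.0948% to 2.79%) and 23 Cd8-only cells (4.48%, 2.86% to 6.65%), a ratio of 0.174 (0.0199 to 0.705). Each of its 27 cells was a clonotype of its own. Its interval no longer lay below 1 in 2 of the 8 other ways of calling or choosing cells: the ratio was 0.296 (0.0339 to 1.20) when the class had to rest on 2 UMIs and 0.255 (0.0292 to 1.03) when cells were thinned to 2500 UMIs.

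TRBV14 and TRBV16 also had higher shares in Cd8-only cells, with ratio intervals that included 1. TRBV14 was in 5 Cd4-only (1.95%) and 25 Cd8-only cells (4.87%), a ratio of 0.401 (0.12 to 1.07). TRBV16 was in 15 (5.86%) and 49 (9.55%), a ratio of 0.613 (0.320 to 1.11), which fell to 0.338 (0.129 to 0.754), an interval below 1, without the barcodes low in ribosomal protein UMIs. Outside the members, TRBV13-1 was nearest to TRBV16, at 0.601.

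TRBV20, TRBV26 and TRBV15 had higher shares in Cd4-only cells, again within counting error. TRBV20 was in 11 cells of each class (4.30% and 2.14%), a ratio of 2.00 (0.788 to 5.10). TRBV26 was in 10 cells of each class (3.91% and 1.95%), also a ratio of 2.00 (0.749 to 5.36), and stood at 1.36 when 2 UMIs were asked for. TRBV15 was in 11 Cd4-only (4.30%) and 14 Cd8-only cells (2.73%), a ratio of 1.57 (0.647 to 3.73). The direction of TRBV15 was not stable, since the ratio was 0.786 when the class had to rest on 2 UMIs and 2.09 with 1 cell per clonotype.

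TRBV19 and TRBV17 were near balance. TRBV19 was in 19 Cd4-only (7.42%) and 33 Cd8-only cells (6.43%), a ratio of 1.15 (0.620 to 2.09), and the outside segment nearest to it was TRBV3 at 1.39. TRBV17 was in 6 (2.34%) and 11 cells (2.14%), a ratio of 1.09 (0.332 to 3.22). Its ratio reached 1.85 without the barcodes low in ribosomal protein UMIs, 1.70 with 2 UMIs for the call and 1.69 among cells with 1 beta chain.

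**Figure D2:**
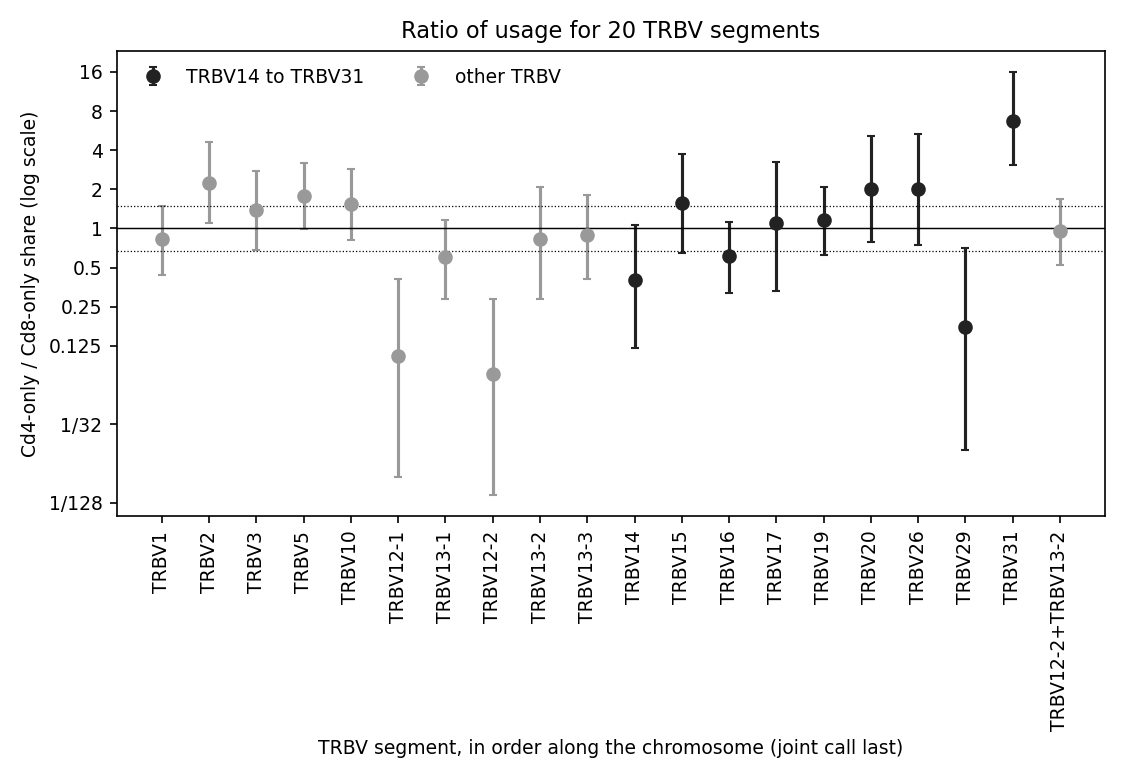
Ratio of the Cd4-only to the Cd8-only share (log scale) for the 20 TRBV segments with at least 10 cells in both classes together, in order along the chromosome with a joint call last; black points are members, grey points the others, bars exact 95% intervals, the solid line is a ratio of 1 and the dotted lines are 1.5 either way. TRBV31, at 6.68, is the highest point, and TRBV29, at 0.174, lies below the other members but above TRBV12-1 and TRBV12-2.

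Position along the locus did not order the ratios. The members lie on chromosome 6 (GRCm39, matched by Ensembl identifier), from Trbv14 at chr6:41112079-41112550 on the plus strand to Trbv29 at chr6:41248328-41248815 on the plus strand, and then Trbv31 at chr6:41534627-41535386 on the minus strand. Trbv29, the found member closest to Trbv31 on the chromosome, had the lowest ratio and Trbv31 the highest. Between them in the authors' calls lay only TRBV30, with 1 cell.

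J pairing was described over chains. Of the 362 member chains 222 used a TRBJ2 segment (61.3%, 56.1% to 66.4%), and of the 619 other chains 61.7% did. The TRBJ2 share was 57.8% (48.0% to 67.2%) in the 109 chains of Cd4-only cells and 63.2% (55.9% to 70.2%) in the 185 chains of Cd8-only cells, with overlapping intervals. Among the members it ran from 41.7% in TRBV26 (10 of 24 chains) to 75.0% in TRBV14 (27 of 36) and TRBV15 (24 of 32), and these intervals overlapped as well. TRBV31 chains used TRBJ2 in 14 of 30 Cd4-only cells (46.7%, 28.3% to 65.7%) and in 8 of 9 Cd8-only cells (88.9%, 51.8% to 99.7%), intervals that overlapped.

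TRBJ2-7 was the most used J segment with 62 member chains (17.1%), then TRBJ2-5 with 51 (14.1%), TRBJ1-1 with 46 (12.7%) and TRBJ2-1 with 36 (9.94%). TRBJ1-4 and TRBJ2-4 had 25 chains each, TRBJ2-2 and TRBJ2-3 had 24 each, TRBJ1-3 had 22, TRBJ1-2 had 19, and TRBJ1-5 and TRBJ1-6 had 14 each. For 0 of the 12 J segments did the share intervals of Cd4-only and Cd8-only member chains fall apart, and likewise for 0 of 12 between members and other TRBV. The J segments with the highest ratio of the Cd4-only to the Cd8-only share were TRBJ2-3, with 8 of 109 Cd4-only chains (7.34%) and 7 of 185 Cd8-only chains (3.78%), and TRBJ1-4, with 9 (8.26%) and 8 (4.32%).

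Of the 108 possible pairs of a found member with a J segment, 97 were seen. TRBV16 held the 3 largest pairs, with TRBJ2-7 in 15 chains, TRBJ2-5 in 12 and TRBJ1-1 in 11. TRBV19 with TRBJ1-4 and TRBV31 with TRBJ2-7 had 10 chains each. For TRBV19 with TRBJ1-4 the V and J totals of the members would give 4.42 chains, while for TRBV16 with TRBJ2-7 they would give 12.8 and for TRBV31 with TRBJ2-7 8.56. All 10 TRBV19 chains with TRBJ1-4 came from different clonotypes, 5 in Cd4-only and 3 in Cd8-only cells. The 12 TRBV16 chains with TRBJ2-5 came from 9 clonotypes.

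**Figure D3:**
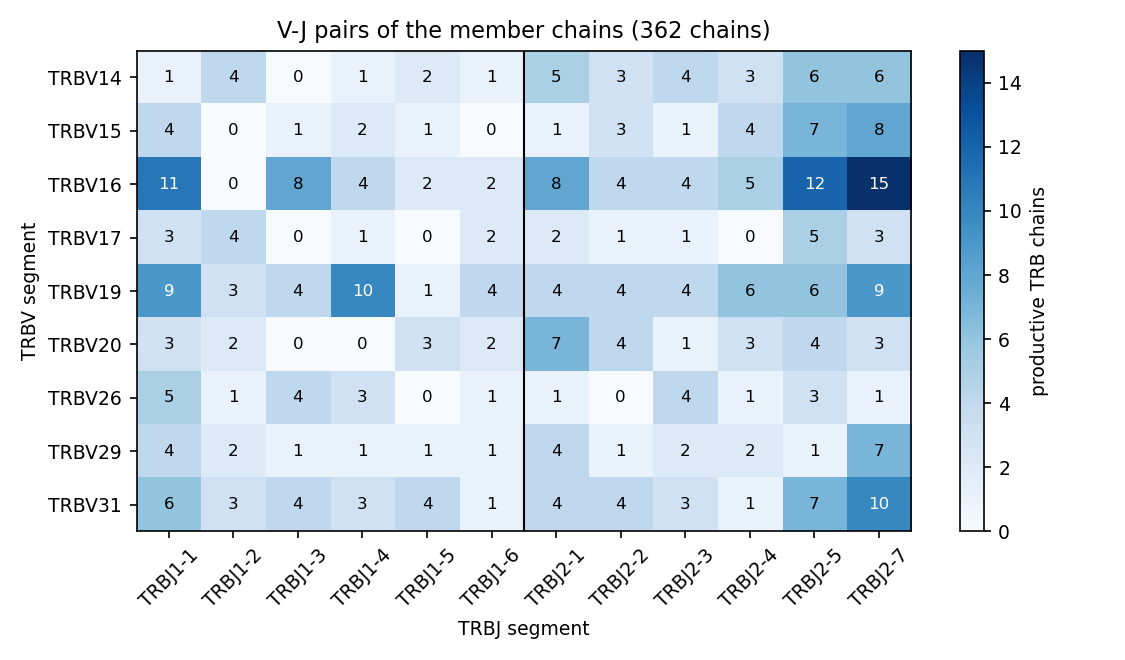
Number of productive chains for each pair of a member V segment (rows) and a J segment (columns), with the TRBJ1 cluster left of the line and the TRBJ2 cluster right of it. TRBV16 with TRBJ2-7 is the fullest cell at 15 chains, and TRBV19 with TRBJ1-4, at 10, stands out within its J column.

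The chains of the largest pair show how different the junctions of a fixed V and J were. For TRBV16 with TRBJ2-7 the 15 CDR3 sequences follow, with capitals for the bases that match neither the V nor the J germline end (D and added bases; an added base that matches by chance is counted as germline).
Cd8-only cell, 14 amino acids: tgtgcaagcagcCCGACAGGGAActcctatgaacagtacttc
Cd4-only cell, 14 amino acids: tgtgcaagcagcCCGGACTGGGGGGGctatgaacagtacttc
neither cell, 13 amino acids: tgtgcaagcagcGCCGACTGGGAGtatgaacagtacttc
Cd8-only cell, 15 amino acids: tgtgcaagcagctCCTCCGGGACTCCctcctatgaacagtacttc
Cd8-only cell, 13 amino acids: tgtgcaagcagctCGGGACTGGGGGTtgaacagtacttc
neither cell, 14 amino acids: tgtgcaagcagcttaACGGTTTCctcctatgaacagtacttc
Cd4-only cell, 12 amino acids: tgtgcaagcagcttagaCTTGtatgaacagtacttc
Cd8-only cell, 14 amino acids: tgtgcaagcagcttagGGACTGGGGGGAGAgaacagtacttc
Cd8-only cell, 14 amino acids: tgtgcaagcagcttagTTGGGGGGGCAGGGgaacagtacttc
Cd8-only cell, 13 amino acids: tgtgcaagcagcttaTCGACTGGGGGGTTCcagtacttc
Cd8-only cell, 15 amino acids: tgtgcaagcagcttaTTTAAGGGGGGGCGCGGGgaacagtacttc
Cd8-only cell, 14 amino acids: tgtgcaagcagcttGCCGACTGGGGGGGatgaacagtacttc
Cd8-only cell, 13 amino acids: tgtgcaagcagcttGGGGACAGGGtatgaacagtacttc
Cd8-only cell, 11 amino acids: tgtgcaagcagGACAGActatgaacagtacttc
Cd8-only cell, 13 amino acids: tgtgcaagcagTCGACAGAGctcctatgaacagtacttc
All 15 were distinct, from 11 to 15 amino acids, with 2 in Cd4-only, 11 in Cd8-only and 2 in neither class. The middle part ran from 4 to 18 bases, and 1 of the 15 chains kept the whole TRBV16 end.

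The 10 chains of TRBV31 with TRBJ2-7 are shown in the same way for the segment that leaned to Cd4-only cells.
Cd4-only cell, 13 amino acids: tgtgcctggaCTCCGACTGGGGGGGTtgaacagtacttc
Cd8-only cell, 11 amino acids: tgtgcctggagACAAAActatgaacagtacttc
Cd4-only cell, 13 amino acids: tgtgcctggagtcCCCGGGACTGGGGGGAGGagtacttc
neither cell, 12 amino acids: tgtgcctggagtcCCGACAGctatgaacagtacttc
Cd4-only cell, 13 amino acids: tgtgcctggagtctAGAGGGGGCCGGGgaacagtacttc
both cell, 14 amino acids: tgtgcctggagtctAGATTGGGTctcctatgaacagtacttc
Cd4-only cell, 13 amino acids: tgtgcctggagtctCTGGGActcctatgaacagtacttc
Cd8-only cell, 10 amino acids: tgtgcctggagtctGGGtgaacagtacttc
neither cell, 12 amino acids: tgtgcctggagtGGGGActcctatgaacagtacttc
Cd8-only cell, 11 amino acids: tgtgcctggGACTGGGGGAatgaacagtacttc
They were spread over 4 Cd4-only, 3 Cd8-only, 1 both and 2 neither cells and ran from 10 to 14 amino acids. The 3 of the Cd8-only cells had 10 or 11 amino acids and the 4 of the Cd4-only cells had 13. Over all TRBV31 chains, however, the mean was 13.5 ± 0.937 amino acids (SD, 30 chains) in Cd4-only and 13.1 ± 2.03 (9 chains) in Cd8-only cells. No interval was computed for this difference.

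The constant and D genes matched the layout of the locus, in which each J cluster lies upstream of its own constant gene. Of the 140 member chains with TRBJ1, 137 carried TRBC1 and 0 TRBC2, and of the 222 with TRBJ2, 221 carried TRBC2 and 0 TRBC1. The other 4 chains had no constant gene called. No D gene was named in 292 of the 362 chains. Among TRBJ1 chains it was TRBD1 in 22 and TRBD2, which lies downstream of the TRBJ1 cluster, in 0, while TRBJ2 chains held TRBD1 in 27 and TRBD2 in 21.

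CDR3 length differed little between the classes. The mean was 13.6 ± 1.49 amino acids (SD, 109 chains) in Cd4-only and 13.7 ± 1.57 (185 chains) in Cd8-only cells, with a median of 14 in both. Chains of at most 13 amino acids made up 47.7% (38.1% to 57.5%) and 38.9% (31.9% to 46.3%). At 13 amino acids itself the share was 28.4% of the Cd4-only chains (31 of 109) and 15.7% of the Cd8-only chains (29 of 185). This was the single length with the widest gap between the classes, and no interval was computed for it. Bases matching neither germline end averaged 9.47 ± 3.84 in Cd4-only and 10.2 ± 3.89 in Cd8-only chains. The V end lost 2.74 ± 2.08 bases in Cd4-only and 3.38 ± 2.09 in Cd8-only chains (SD over chains). The SD does not measure the error of a mean, and no interval was computed for this difference. TRBV31, the segment that lost fewest bases on average, made up 30 of the 109 Cd4-only and 9 of the 185 Cd8-only chains. The part of this mix of segments in the difference was not tested.

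Pooled over segments, member chains were shorter on average than the chains of the other TRBV segments. Of the 362 member chains 43.1% (37.9% to 48.4%) had at most 13 amino acids, against 29.4% (25.8% to 33.2%) of the 619 others, and these intervals did not overlap. The means were 13.6 ± 1.5 and 14.1 ± 1.39 amino acids. The lower length held within both classes, with 47.7% against 36.4% short chains in Cd4-only cells and 38.9% against 25.7% in Cd8-only cells. In the Cd8-only cells the intervals (31.9% to 46.3% and 21.2% to 30.6%) did not overlap, and in the Cd4-only cells they did. Cells of the same clone were counted separately, and the other TRBV chains were not recomputed with 1 cell per clonotype.

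Among the members the mean length ran from 13 ± 1.78 amino acids in TRBV20 (32 chains) to 14.1 ± 1.42 in TRBV26 (24 chains). TRBV15 (13.3 ± 1.5), TRBV29 (13.3 ± 1.35), TRBV31 (13.4 ± 1.21) and TRBV14 (13.4 ± 1.21) followed TRBV20, and TRBV17, TRBV16 and TRBV19 reached 13.8, 14 and 14. TRBV16, TRBV19 and TRBV26 thus stood near the pooled mean of the other TRBV (14.1), so the shorter length was not shared by every member. Lengths of single segments outside the members were not computed. The short share was highest in TRBV20 (59.4%, 40.6% to 76.3%) and TRBV15 (56.3%, 37.7% to 73.6%) and lowest in TRBV19 (32.8%, 21.6% to 45.7%), and the intervals of all 9 overlapped. Of the 2 segments with a germline end of 14 bases, TRBV20 was thus the shortest and TRBV31 lay among the next.

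**Figure D4:**
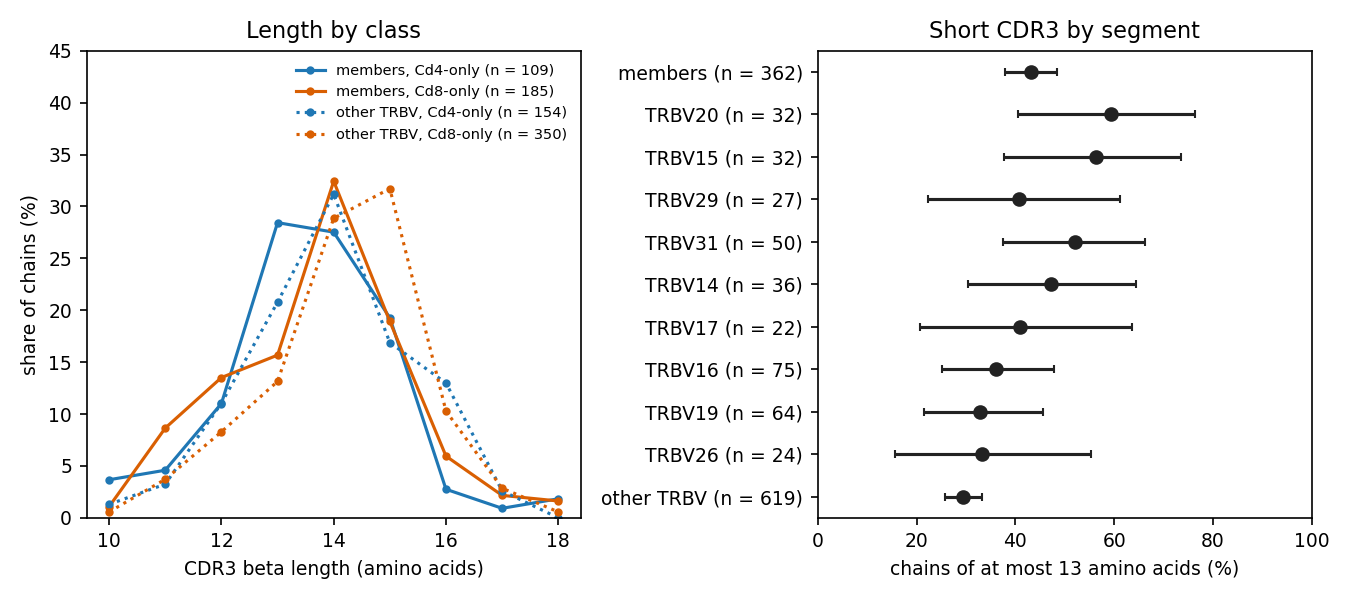
Left, share of chains (%) by CDR3 length in amino acids for member (solid) and other TRBV (dotted) chains of Cd4-only and Cd8-only cells; right, share of chains of at most 13 amino acids with exact 95% intervals for all members together, each found member in order of mean length, and the other TRBV. Member chains peak at 13 or 14 amino acids and hold 43.1% short chains against 29.4% in the other TRBV.

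The expression matrix, from another library of the same droplet barcodes, was set beside the V calls. Whether both libraries counted the same RNA molecules was not tested, so the match below is not an independent check. A UMI of the matching Trbv gene was found in 361 of the 362 pairs of a cell and its member segment, with 3413 UMIs in all, and the missing pair was a TRBV29 cell. In the remaining TRB cells the share with a UMI of the gene was 0.328% (Trbv17) to 1.38% (Trbv16). The median number of UMIs behind a chain was 6.5 for TRBV26 and TRBV31, 7 for TRBV14 and TRBV19, 8 for TRBV29, 9 for TRBV17, 10.5 for TRBV20, 11 for TRBV16 and 18.5 for TRBV15. TRBV31, the member with the largest lean, was thus among those with fewest UMIs, and its ratio was 6.31 when only chains of at least 3 UMIs were kept.

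**Figure D5:**
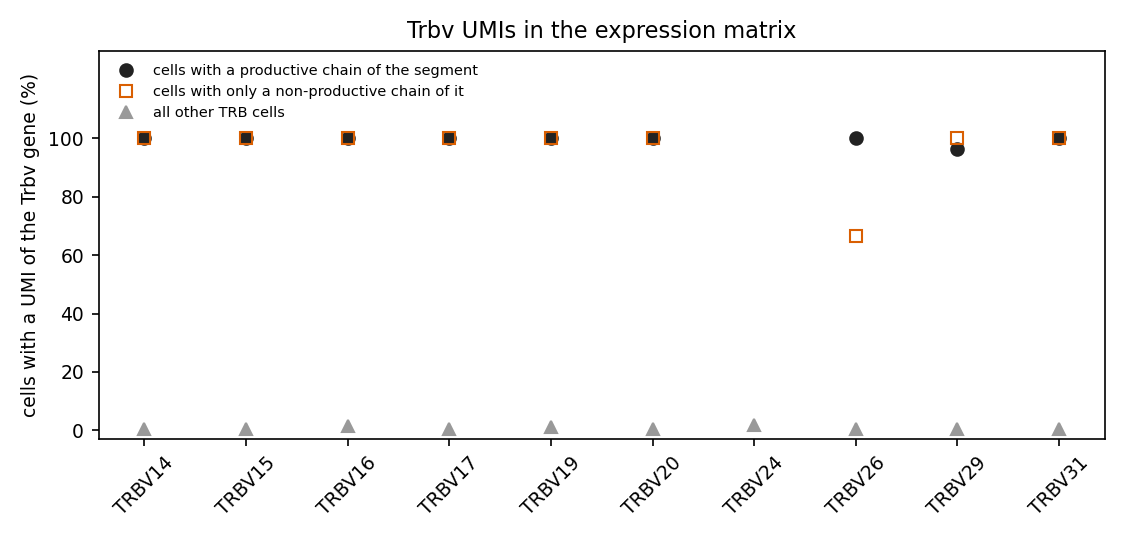
Share of cells (%) with at least 1 UMI of the matching Trbv gene in the expression matrix, for cells with a productive chain of the segment (filled circles), cells with only a non-productive chain of it (open squares) and all other TRB cells (triangles). The first stands at 100% for every found segment but TRBV29, the last at 0.328% to 1.90%, where 1.90% is Trbv24.

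Each T cell can carry a second beta rearrangement. Of the 36 cells with 2 productive beta chains, 27 held a member chain, and a cell with 2 chains can enter by either. TRBV17 cells had the highest count for their number, with 6 of 22, then TRBV15 and TRBV20 with 5 of 32 each, while TRBV26 had 0 of 24. An alpha chain was found in 291 of the 355 member cells (82.0%, 77.6% to 85.8%) and in 81.0% of the 590 others. It was found least often with TRBV31 (36 of 50, 72.0%) and TRBV17 (16 of 22, 72.7%) and most often with TRBV29 (26 of 27, 96.3%), with overlapping intervals. The member cells used 72 different TRAV segments, and TRAV12D-3, the most frequent, was in 14 cells. The V and J gene pairs of the invariant alpha chains of natural killer T and mucosal-associated invariant T cells were also looked for. Such a pair was found in 1 member cell, with TRBV17, and in 2 of the other cells. The rule was the gene pair alone, so these cells are not shown to be invariant T cells.

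Few member clones had expanded. A clonotype of 2 or more cells with a member chain occurred 7 times, in 19 of 355 cells (5.35%, 3.25% to 8.23%), against 20 clonotypes in 55 of the 590 cells without a member chain (9.32%, 7.10% to 12%), with overlapping intervals. The CDR3 of each is shown with the same capitals, because these are the member receptors seen more than once.
TRBV15 with TRBJ2-5, 5 cells: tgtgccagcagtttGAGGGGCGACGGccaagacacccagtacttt
TRBV16 with TRBJ2-5, 3 cells: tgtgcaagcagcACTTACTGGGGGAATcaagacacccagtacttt
TRBV16 with TRBJ1-3, 3 cells: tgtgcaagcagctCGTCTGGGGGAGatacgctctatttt
TRBV31 with TRBJ2-1, 2 cells: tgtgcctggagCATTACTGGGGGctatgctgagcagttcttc
TRBV16 with TRBJ2-5, 2 cells: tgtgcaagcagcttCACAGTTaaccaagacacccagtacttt
TRBV16 with TRBJ1-3, 2 cells: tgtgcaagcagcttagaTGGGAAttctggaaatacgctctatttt
TRBV19 with TRBJ1-6, 2 cells: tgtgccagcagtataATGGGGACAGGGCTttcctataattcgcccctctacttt
The TRBV15 clone held 5 cells, all Cd8-only, with an alpha chain of TRAV9-2 and TRAJ22. Ccl5, a chemokine of effector and memory T cells, was in 5 of its cells with 821 UMIs, Gzmk, a granule protease, in 4 with 31 UMIs and Gzmb, another, in 2. The larger TRBV16 clones were also Cd8-only and held Ccl5 in 3 of 3 cells each, and the smaller TRBV16 clone with TRBJ2-5 held it in 2 of 2. The TRBV31 and TRBV19 clones, of 2 cells each, were Cd4-only, held 0 UMIs of Gzma, Gzmb and Gzmk, and had 0 and 1 cells with Ccl5. Their cells held 4333 and 8245 UMIs in all, against 27981 in the TRBV15 clone and 8859 in the smaller TRBV16 clone with TRBJ2-5. The remaining TRBV16 clone, with TRBJ1-3, had 1 Cd4-only cell and 1 with neither coreceptor gene, at only 1089 and 1165 UMIs per cell. The authors' clone of TRBV16 with TRBJ2-5 counts 4 cells, of which 3 had the beta chain. TRBV16 made up 4 of the 7 clones.

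Identical CDR3 sequences also arose outside clones. A TRBV29 and a TRBV17 junction each occurred in cells that the authors put in different clonotypes, and 2 CDR3 proteins were each made by 2 different member segments.
TRBV29 with TRBJ2-1, 12 amino acids: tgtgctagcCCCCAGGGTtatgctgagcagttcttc
TRBV15 with TRBJ2-4, 11 amino acids: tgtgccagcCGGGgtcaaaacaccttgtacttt
TRBV19 with TRBJ2-4, 11 amino acids: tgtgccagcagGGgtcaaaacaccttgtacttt
TRBV14 with TRBJ2-5, 15 amino acids: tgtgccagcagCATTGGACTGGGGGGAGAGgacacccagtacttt
TRBV19 with TRBJ2-5, 15 amino acids: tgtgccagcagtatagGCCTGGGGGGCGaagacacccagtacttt
TRBV17 with TRBJ1-2, 14 amino acids: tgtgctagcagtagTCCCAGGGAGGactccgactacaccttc
In the TRBV15 and TRBV19 pair the CDR3 protein was the same while 1 cell was Cd4-only and the other Cd8-only, and their alpha chains differed. The TRBV29 pair shared the alpha chain TRAV10 with TRAJ42, while the TRBV17 pair did not share an alpha chain.

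The state of the cells was described with genes listed for it. Among Cd4-only cells Ccr7 and Lef1, genes of naive T cells, were in 77.1% and 86.2% of the 109 member cells and in 79.6% and 85.0% of the 147 others, at class medians given above. Foxp3, the factor that defines regulatory T cells, was in 9 of 109 member cells (8.26%, 3.85% to 15.1%) and 4 of 147 others (2.72%, 0.746% to 6.82%), with overlapping intervals. In UMIs per 10000 its rate was 0.470 (0.294 to 0.711) and 0.0608 (0.0166 to 0.156), and 15 of the 22 Foxp3 UMIs of the member cells came from 2 TRBV19 cells. Ikzf2, another gene of regulatory T cells, was in 12 of 109 member cells (11.0%, 5.82% to 18.4%) and 20 of 147 others (13.6%, 8.51% to 20.2%), at 0.961 and 0.989 UMIs per 10000. The 9 Foxp3 cells were spread over 8 member segments, with 2 in TRBV19 and 0 in TRBV29. Of the 30 TRBV31 Cd4-only cells 27 held Lef1, 1 Foxp3 and 1 S100a4, a gene raised in effector and memory T cells. Over all Cd4-only cells S100a4 was in 16 of 109 member cells (14.7%) and 31 of 147 others (21.1%), with overlapping intervals. Its rate was 4.02 (3.46 to 4.63) UMIs per 10000 in the members and 2.54 (2.17 to 2.96) in the others. Of the 188 S100a4 UMIs of the member cells, however, 91 came from 2 TRBV20 cells. Cd44, another gene raised in memory T cells, was in 34.9% and 44.9%, also with overlapping intervals. Unlike that of S100a4, the rates of Ly6c2, Ccl5 and Nkg7 were lower in the members. Ly6c2 stood at 0.171 (0.0738 to 0.337) UMIs per 10000 in the members and 1.004 (0.776 to 1.28) in the others. Ccl5 stood at 3.27 (2.77 to 3.83) and 15.5 (14.6 to 16.5), and Nkg7 at 1.03 (0.756 to 1.36) and 1.75 (1.44 to 2.10). The share intervals of these genes overlapped, with Ly6c2 in 3 of 109 and 11 of 147 cells. Rate intervals treat UMIs as independent, so they are too narrow.

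Among Cd8-only cells S100a4 was in 16 of 180 member cells (8.89%, 5.17% to 14.03%) and 60 of 333 others (18.0%, 14.04% to 22.6%). The intervals were apart by a very narrow margin, and the rates were 0.497 (0.386 to 0.630) and 1.08 (0.951 to 1.21) UMIs per 10000. Cells of the same clone were counted separately here, and these values were not recomputed with 1 cell per clonotype. Cd44 was in 55.0% of the member and 53.2% of the other cells. Ly6c2 was in 55.6% and 59.2%, and Nkg7 in 88.3% and 91.9%. Of the naive genes, Ccr7 was in 82.2% and 75.7% and Lef1 in 93.3% and 89.2%. The share intervals of these genes overlapped. Ccl5 was in 75 member cells (41.7%) and 48.0% of the others, Gzmb in 5.56% and 10.8%, Gzma in 3.33% and 6.61%, and Gzmk in 13.9% and 13.8%, all with overlapping intervals of the shares. In UMIs per 10000 Ccl5 stood at 42.5 (41.4 to 43.6) in the members and 53.2 (52.3 to 54.1) in the others. These rate intervals treat UMIs as independent and so are too narrow. The 5815 Ccl5 UMIs of the members lay in 75 cells, with 821 in the TRBV15 clone and 692 in a TRBV16 clone. The 13140 of the others lay in 160 cells. Gzma stood at 0.417 (0.316 to 0.540) and 1.36 (1.22 to 1.51), the latter from 336 UMIs in 22 cells. The rate intervals of Gzmb and Gzmk overlapped. By segment Ccl5 was in 9 of 14 TRBV15 Cd8-only cells, 5 of them from the clone above, 13 of 25 TRBV14 cells and 10 of 23 TRBV29 cells, against 1 of 10 TRBV26 cells. The platelet gene Pf4, a sign of bound or free platelet RNA, was in 7.78% of the member and 9.91% of the other Cd8-only cells, and in 8.26% and 9.52% of the Cd4-only cells.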

How the data were processed

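The authors processed the reads of the receptor and 5′ gene expression libraries with Cell Ranger (version 4 per the file headers) on GRCm38 per the labels, and deposited unnormalized counts of UMIs for each gene in each barcode, with a contig table holding read and UMI counts, V, D, J and constant genes and CDR3 sequences. The release of the receptor reference is not given in the sources used here. The matrix holds 12855001 UMIs over 300213 barcodes; the 945 TRB cells had 569 to 17444 UMIs (median 5065) and their chains a median of 8.

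The member segments and gene lists were chosen with earlier results of these data known. All 10 members, all J segments, the 5 largest V-J pairs, every clone of 2 or more cells, and for members of at least 50 cells the outside segment with the nearest ratio were named. A cell was counted once per segment, J and CDR3 features over chains. The junction was split by the longest match to the GENCODE M39 V and J ends, looked up by gene name. B cells were called barcodes of at least 1331 UMIs (the 99th percentile of the top 3000 divided by 10) with UMIs of Cd79a and Ms4a1 and no productive receptor contig. Gene positions are GRCm39. Python 3.11.15, pandas 2.3.3, SciPy 1.17.1 and Matplotlib 3.10.9 were used, and the share, ratio and junction functions were tested on simulated data.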

Additional observations from a re-analysis of the deposited data

Results flagged for a closer look

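UMIs of Trbv24, whose segment gave no contig at all, were found in 18 of 945 TRB cells (1.90%, 1.13% to 2.99%), with 24 UMIs in all and at most 3 in a cell. None was found in 77 B cells, where 3 cells would be 3.90%, a rough limit and not an exact bound. Of the 9 cells with a non-productive TRBV23 chain 7 held a Trbv24 UMI, against 11 of the 936 other cells (1.18%). The cause was not tested.

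Non-productive beta chains, which the comparisons left out, used a member segment in 49 of 117 cases. TRBV31 had 13 of them beside 50 productive chains (20.6%, 11.5% to 32.7% of its chains), TRBV15 had 10 (23.8%), TRBV19 had 8, TRBV17 had 7 (24.1%), and TRBV14 and TRBV29 had 1 each. Over all members the non-productive share was 11.9% and over the other TRBV 9.90%. In 43 of the 44 cells with only a non-productive chain of a member segment the matrix held UMIs of that gene. Of the 13 non-productive TRBV31 chains 4 were in Cd4-only and 5 in Cd8-only cells, classes of 256 and 513 cells.

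Productive member chains were also listed for barcodes not called cells, 866 of 2227 such chains, and 767 of the 866 rested on 1 UMI.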

How the results depend on the processing

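Of 166 recomputed values 162 stayed within the interval of the reported share or ratio, within 1 SD of a mean or within 1.5 times of a count. The mean lengths had little room to fail, since the SD was that over chains (1.49 and 1.57 amino acids). Ratios of single segments had little room as well, with wide intervals such as 0.0199 to 0.705 for TRBV29 and 0.788 to 5.10 for TRBV20. The other ways also reuse cells of the main setting, so this count does not show how values would vary in other cells. The direction of TRBV15 reversed, to a ratio of 0.786, when a class had to rest on at least 2 UMIs. That value was not counted among the 162, although it lies within the TRBV15 interval (0.647 to 3.73). With a ratio of 2 in place of 1.5, 8 of the TRBV segments leaned instead of 13. With share intervals that do not overlap, chosen after the data were seen, 4 segments and 2 members did, instead of 13 and 7. Over 8 ways of calling or choosing cells the member share ran from 40.1% to 42.8% in Cd4-only and from 33.0% to 36.1% in Cd8-only cells, the TRBJ2 share from 56.6% to 59.0% and from 62.5% to 64.2%, and the share of chains of at most 13 amino acids from 46.0% to 52.9% and from 38.9% to 40.7%. The TRBV29 ratio ran from 0.166 to 0.296. The TRBV31 interval lay above 1 in all 8, the TRBV29 interval below 1 in 6 of 8, and the TRBV16 interval below 1 in 1 of 8. The intervals of the other 6 found members included 1 in all 8, and 1 mouse gives no spread between animals.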
